A study of Homo sapiens with 4 samples.

Results

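CpG methylation left in HUDEP-2 cells differentiated with a DNMT1 inhibitor was compared with that of cells differentiated with the solvent DMSO. Members were the CpGs on chromosomes 1 to 22 listed in both deposited tables, 23327068 of the 24844416 CpGs listed in any of the 4 tables of the series (93.9%). HUDEP-2 is an immortalised human erythroid precursor line kept in an expandable state with doxycycline, which stayed in the medium at every stage. Both libraries came from cells grown for 4 days in the first differentiation medium and 2 days in the maturation medium, with 0.1% DMSO in the medium from expansion onward, without or with the inhibitor. The series also holds a library of non-differentiated cells and a library of cells differentiated with an EED inhibitor, which served here only as a scale for differences between libraries and, for the former, to sort CpGs into classes. The compound and its dose were not given in the sources used here. Each condition was 1 library, so no difference was tested, no replicate spread exists, and all statements describe these libraries. Wilson intervals at 95% are given for levels. They reflect counting error alone, and without molecular identifiers PCR copies are counted as separate reads.

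DNMT1 is the maintenance methyltransferase: after replication it restores methylation on the new DNA strand opposite a methylated CpG, recruited by UHRF1, which binds hemimethylated CpGs. When its activity is lost, methylation is diluted as cells divide, while DNMT3A and DNMT3B can add methylation anew. Promoters of imprinted genes and of germline genes are known sites of stable CpG methylation in somatic cells.

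Stretches of CpG-dense DNA that had high levels in DMSO ended far apart with the inhibitor, and 4 stretches of 240 bp show the ends of that range. They hold the most measured CpGs within the 1000 bp windows at each end of the order by inhibitor level, given as the plus strand of hg38 with every CpG in capitals.
LATS2 exon, chr13:20988581-20988820: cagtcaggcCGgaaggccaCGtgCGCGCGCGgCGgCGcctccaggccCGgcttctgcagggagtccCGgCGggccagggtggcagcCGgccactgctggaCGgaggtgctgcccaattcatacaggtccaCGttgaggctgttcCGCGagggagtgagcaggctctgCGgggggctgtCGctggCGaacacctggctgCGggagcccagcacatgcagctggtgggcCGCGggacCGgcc
KCNV2 exon, chr9:2718321-2718560: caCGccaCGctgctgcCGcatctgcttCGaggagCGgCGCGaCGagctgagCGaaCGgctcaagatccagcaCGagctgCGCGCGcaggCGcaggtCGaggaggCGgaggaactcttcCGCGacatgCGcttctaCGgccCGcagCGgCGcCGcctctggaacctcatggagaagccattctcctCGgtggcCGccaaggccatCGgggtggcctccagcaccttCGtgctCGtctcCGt
Near RBM38, chr20:57411371-57411610: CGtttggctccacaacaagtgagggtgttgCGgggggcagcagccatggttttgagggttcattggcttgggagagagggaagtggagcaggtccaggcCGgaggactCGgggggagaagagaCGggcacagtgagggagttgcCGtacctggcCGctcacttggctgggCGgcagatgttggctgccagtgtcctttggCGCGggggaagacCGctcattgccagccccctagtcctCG
Near RNH1, chr11:519331-519570: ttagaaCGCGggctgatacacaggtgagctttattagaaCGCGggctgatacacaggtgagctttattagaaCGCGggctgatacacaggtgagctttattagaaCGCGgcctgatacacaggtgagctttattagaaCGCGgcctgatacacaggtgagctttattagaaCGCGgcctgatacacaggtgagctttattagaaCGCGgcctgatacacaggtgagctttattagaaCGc
The first 2 lie inside coding sequence, of LATS2, a Hippo pathway kinase, and of KCNV2, a potassium channel subunit. The 1000 bp window of KCNV2 touches the promoter span and counts as a promoter among the windows below. The LATS2 stretch stood at 93.4% in DMSO and 75.4% with the inhibitor (interval 70.8 to 79.4%, 23 CpGs at a mean of 16.6 reads). The KCNV2 stretch stood at 97.1% and 72.8% (69.2 to 76.1%, 31 CpGs at 20.9 reads). The other two lie outside protein-coding genes, and both fell to single digits. Beside RBM38, which encodes an RNA-binding protein, the level was 94.6% in DMSO and 6.30% with the inhibitor (3.86 to 10.1%, 12 CpGs at 19.8 reads). The stretch nearest to RNH1, a ribonuclease inhibitor gene, is a tandem repeat of a short unit holding CGCG and went from 85.5% to 2.80% (1.29 to 5.98%, 14 CpGs at 15.3 reads). Its units are nearly alike, so reads may be misplaced among them and its CpGs may not be separate measurements. Single CpGs did not overlap between these ends: they ranged from 47.1 to 100% at LATS2 and 38.1 to 95.5% at KCNV2, against 0 to 20% near RBM38 and 0 to 14.3% near RNH1. These stretches were picked from the values themselves, so the contrast is a description.

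Over all members the methylation level, methylated reads over all reads, was 60.3% in DMSO and 16.8% with the inhibitor, a difference of −43.4 points. The inhibitor library thus kept 27.9% of the DMSO level, a quantity called the kept share here. The non-differentiated library stood at 61.8% and the EED inhibitor library at 59.3% over the same CpGs where listed. Mean coverage was 28.8 reads in DMSO and 29.8 with the inhibitor. The kept share lay between 25.7% on chromosome 11 and 30.5% on chromosome 21 over the 22 autosomes. The loss was also seen in nearly every piece of the genome. Of 2364115 windows of 1000 bp with at least 3 members, 1925890 (81.5%) were at least 25 points lower with the inhibitor and 0 were as much higher. By the same rule of size 0.0263% were lower and 0.0210% higher in DMSO than in non-differentiated cells, and 0.0742% were lower and 0.0260% higher with the EED inhibitor than in DMSO. All 26645 windows of 100 kb and all 2729 windows of 1 Mb had a lower level with the inhibitor.

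**Figure D1:**
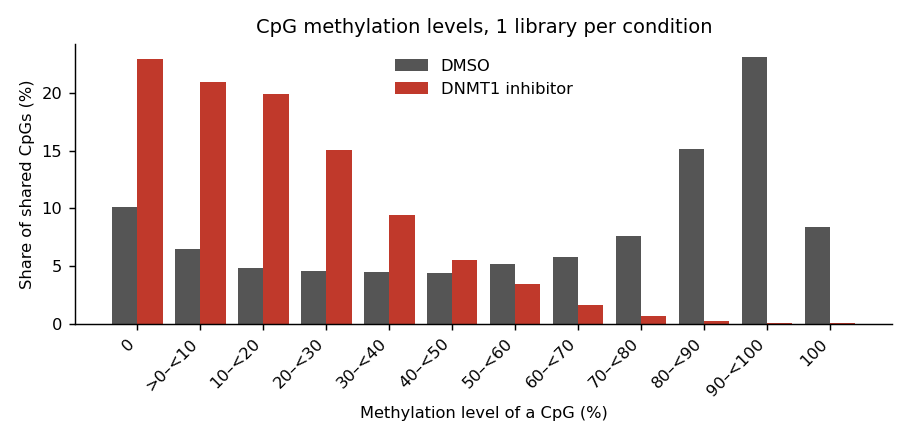
Share of the shared CpGs (%) by methylation level (%), in steps of 10 points with 0 and 100 apart, for the DMSO library (grey) and the DNMT1 inhibitor library (red). DMSO has its largest bar at 90 to under 100 (23.1% of CpGs), and the inhibitor library falls steadily from 22.96% of CpGs at 0.

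The loss was partial at single CpGs. The plot of CpG levels has no second hump at high levels in the inhibitor library: the median CpG stood at 75.8% in DMSO, and only 1.64% of CpGs lay at 60 to under 70% with the inhibitor. Of the 11191075 CpGs at 80% or more in non-differentiated cells, called the methylated class here, 1.45% were at 0, 37.3% at 20% or less, 12.04% at 50% or more and 0.594% at 80% or more with the inhibitor. Their median was 25.0%, with the middle 50% of CpGs between 15.6 and 38.1%. This class as a whole went from 90.3 to 27.7%, a kept share of 30.7%. Because a separate library set the class, the choice of CpGs shared no counting error with the levels compared. Counting error in those levels remains.

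CpGs that started lower kept a smaller share. CpGs at 20 to under 40% in non-differentiated cells kept 16.9% of the DMSO level (31.1 to 5.25%), those at 60 to under 80% kept 21.7%, and those at 100% kept 35.8% (93.7 to 33.5%). The order rose from the class at 5 to under 20% (14.8%) to the one at 100%. CpGs under 5% stood at 2.28% in DMSO and 0.367% with the inhibitor. Conversion was not measured apart from these tables, so how far unconverted cytosine adds to such low levels was not tested.

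Crowded CpGs kept more than lone ones. In the methylated class, CpGs with 0 or 1 other CpG within 250 bp kept 24.05% of the DMSO level (88.6 to 21.3%). With 10 to 14 others the kept share was 33.5%, with 20 to 29 it was 40.6%, and with 40 or more it was 58.4% (92.6 to 54.1%). The rise continued through all 9 density classes, and the DMSO level moved by only about 4 points between the ends. Counting neighbours within 35 bp gave 24.03% for CpGs with none and 59.1% for those with 8 or more. Coverage moved with density, from 33.1 reads in DMSO in the sparsest class to 18.3 in the densest. Between 0 or 1 and 20 or more others, the kept share went from 24.1 to 44.1% among CpGs with 10 to 19 reads in DMSO, and from 24.1 to 40.4% among those with at least 30.

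**Figure D2:**
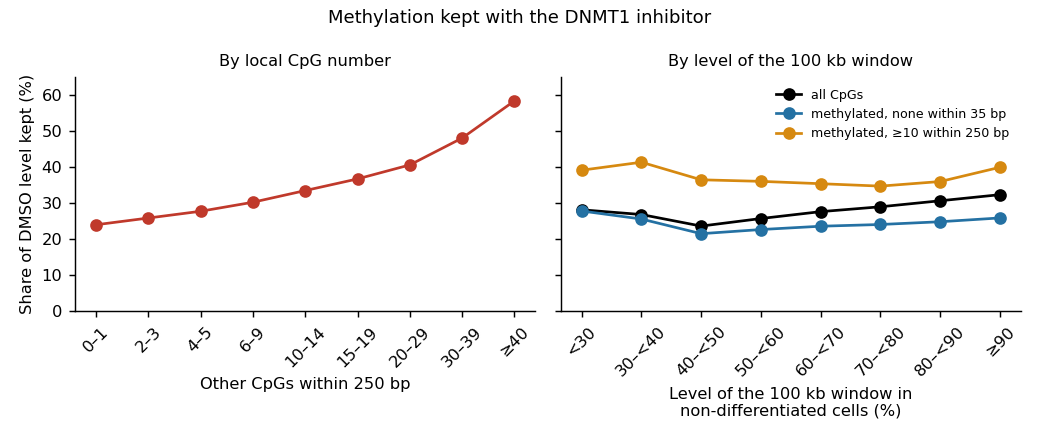
Kept share (%, inhibitor level over DMSO level) of methylated CpGs by the number of other CpGs within 250 bp (left) and of 100 kb windows by their level in non-differentiated cells (right), for all CpGs, methylated CpGs with none within 35 bp and methylated CpGs with at least 10 within 250 bp. The left line climbs from 24.05 to 58.4%, while the black line on the right stays between 23.7 and 32.4%.

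The bases beside a CpG went with a further part of the variation. Sequence was examined at methylated CpGs with no other CpG within 35 bp, with both strands merged, because density differs between contexts. With no A or T directly beside the CG the kept share was 28.1%, with 1 it was 23.8%, and with 2 it was 19.8%. The same direction held within each density class compared: with 20 or more CpGs within 250 bp, for example, CpGs of the whole methylated class kept 47.2% with no A or T beside them and 36.6% with 2. Coverage was 45.4 reads in that last class against 19.997 in the former, and its part in the difference was not tested. Among the 10 tetramers GCGC kept most (29.9%), and ACGA (19.55%) and ACGT (19.56%) kept least.

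The second base out went with differences as large as the first. Over the 120 hexamers measured at such CpGs, TGCGCA kept most, with 92.1% in DMSO and 36.0% with the inhibitor (39.1% kept, 22584 CpGs). ACCGCA followed with 34.3%. AACGTT kept least, at 86.6 and 11.7% (13.5% kept, 12677 CpGs). GGCGCC, which has the same tetramer GCGC as TGCGCA, kept 15.7% and ranked 117. Read by half-site, the 2 bases after CG on either strand, CGCA stood first of 15 at 29.95% and CGTT last at 19.1%. Of the 10 hexamers that kept most, 6 held CGCA, and of the 10 that kept least, 6 held CGTT and 4 held CGTC. No hexamer with CGCA was among the lowest 10. CGCA and CGCC share their first base after CG, and they differed by more than 8 points (29.95 and 21.42%).

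Kept shares differed less by the level of the surrounding 100 kb than by density. Windows under 50% in non-differentiated cells, called low windows here, numbered 11148 of 26645. Windows at 40 to under 50% kept 23.7% (44.3 to 10.5%), the lowest of 8 classes. The kept share rose from there to 32.4% in windows at 90% or more (90.3 to 29.3%). It was also higher below that class, at 26.9% in windows at 30 to under 40% and 28.2% in the 89 windows under 30%. In the plot of kept share by window level the line for isolated CpGs has its lowest point at the same class as the line for all CpGs (21.6%). The line for crowded CpGs does not: it ran from 41.4% in windows at 30 to under 40% down to 34.8% at 70 to under 80% and up to 39.99% at 90% or more. Between windows at 70% or more and under 50% the kept share differed by 5.64 points over all CpGs and by 2.55 over methylated CpGs. Single windows spread more than these averages, from 13.9 to 57.0% with a median of 26.4%.

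Low windows differed by place. Low windows without any coding gene kept 25.3%, and low windows wholly inside coding genes kept 23.3%, both with about 5.3 CpGs within 250 bp of a CpG. Among the latter, those in genes of 500 kb or more kept 24.4%. Low windows covered by coding genes for 50 to under 100% of their length kept 22.6%, and those covered for less kept 23.9%. By chromosome, the median kept share of low windows was 31.5% on chromosome 21, 30.1% on chromosome 19 and 29.1% on chromosome 13, against 21.4% on chromosome 20 and 21.8% on chromosome 1. The 5 windows of 1 Mb that kept least each overlapped 1 coding gene. They held DPYD, for pyrimidine breakdown (17.6%), PLCL1, a phospholipase-like protein (18.1%), ASIC2, an acid-sensing channel (18.2%), PDE4D, a cyclic AMP phosphodiesterase (18.3%), and NELL1, a secreted signalling protein (18.5%). Their DMSO levels ran from 35.5 to 44.5%. The 5 that kept most held no coding gene and lay on the short-arm or centromere side of chromosomes 13, 14, 21 and 22. The highest, on chromosome 21, went from 52.1 to 25.97% (49.8% kept) at a coverage of 61.9 reads, more than the genome mean. The other four kept 43.99 to 45.04% at 23.5 to 29.2 reads. The part of coverage in the kept shares of these 5 windows was not tested either. CpGs within 0.5 Mb of a chromosome end kept 33.5%, against 27.4% beyond 10 Mb.

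Kept methylation was patterned along the DNA at a short scale. For pairs of methylated-class CpGs, Pearson r of the inhibitor levels was 0.67 at 2 to 11 bp and fell to 0.18 at 92 to 101 bp. It then rose to 0.37 at 182 to 191 bp (1291926 pairs), fell to 0.20 at 272 to 281 bp, rose to 0.30 at 352 to 361 bp and, after a further low of 0.17, to 0.25 at 552 to 561 bp. In DMSO the same CpGs gave 0.34 at 2 to 11 bp, and the values at their own first low and first peak were 0.12 and 0.14. The EED inhibitor library gave 0.11 and 0.13. Choosing CpGs at 80% or more holds these libraries near their ceiling, so pairs were also taken without that choice. Over every shared CpG r went from 0.33 at the first low to 0.52 at the first peak with the inhibitor, and from 0.53 to 0.57 in DMSO. Over CpGs at 20 to under 80% in non-differentiated cells it went from 0.14 to 0.29 with the inhibitor and from 0.07 to 0.08 in DMSO. These correlations are descriptions across CpG pairs, and nearby pairs share reads, base composition and repeats. The standard deviation of the levels across these CpGs was 16.7 points with the inhibitor and 8.64 in DMSO, and its part in the higher r was not tested.

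**Figure D3:**
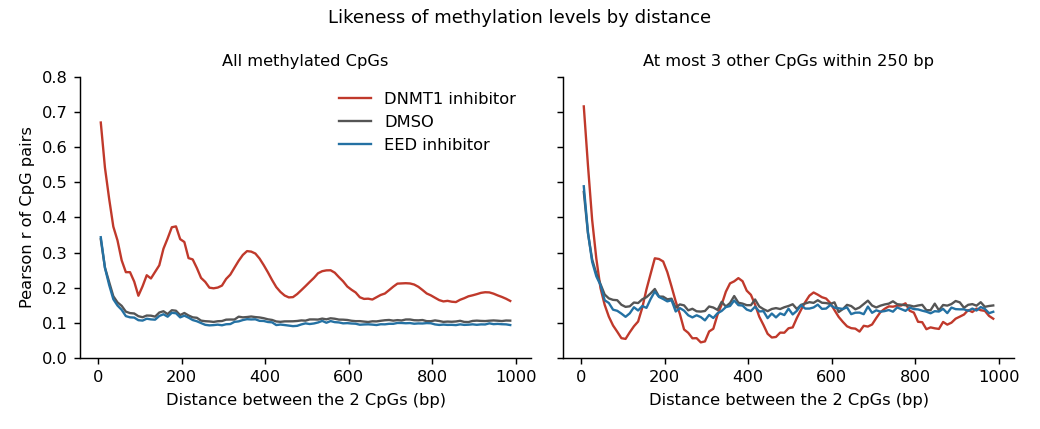
Pearson r of methylation levels between 2 methylated CpGs (vertical axis) by their distance in bp (horizontal axis), for the DNMT1 inhibitor (red), DMSO (grey) and EED inhibitor (blue) libraries, over all methylated CpGs (left) and those with at most 3 other CpGs within 250 bp (right). The red line rises and falls with peaks near 182 to 191, 352 to 361 and 552 to 561 bp on the left, and the other lines move less. On the right they also rise and fall, from 0.15 to 0.20 in DMSO and from 0.12 to 0.19 with the EED inhibitor, beside 0.05 to 0.28 for the red line.

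In each subset examined the first low and first peak were located anew, which favours a rise between them. With the inhibitor the first low lay within 92 to 111 bp and the first peak within 172 to 191 bp in every subset below. Among CpGs with at most 3 others within 250 bp, r with the inhibitor was 0.05 at its first low and 0.28 at its first peak at 172 to 181 bp. DMSO there went from 0.15 to 0.20 and the EED inhibitor library from 0.12 to 0.19. In low windows under 50% it went from 0.17 to 0.41, and in windows at 70% or more from 0.16 to 0.37. From first low to first peak r went from 0.24 to 0.44 on chromosome 21, from 0.13 to 0.34 on chromosome 2 and from 0.29 to 0.44 on chromosome 19, where the rise was smallest (0.15). With at least 20 reads in both libraries r went from 0.12 to 0.36. These subsets were chosen after the pattern was seen.

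A related spacing appeared around matches to the motif of CTCF, the zinc finger protein that bounds chromatin loops. Its 12 base motif had 10541 matches on both strands, of which 4627 had a level of 30% or less within 100 bp in non-differentiated cells and 1125 had 80% or more. A match is a description and not a bound site. Around the low matches, methylated-class CpGs at 160 to 179 bp from the match stood at 15.4% with the inhibitor (312 CpGs). They stood at 33.6% at 220 to 239 bp, at 16.5% at 280 to 299 bp, at 28.7% at 400 to 419 bp, at 16.2% at 480 to 499 bp and at 26.6% at 580 to 599 bp. The swings went on outward and became smaller, with 19.4% at 680 to 699 bp, 24.4% at 740 to 759 bp, 20.7% at 840 to 859 bp and 23.9% at 940 to 959 bp. DMSO levels of the same CpGs ran from 87.5 to 93.1%, a narrow range that choosing CpGs at 80% or more helps to set. Over every CpG around the low matches DMSO itself swung widely, from 22.7% at 160 to 179 bp to 70.7% at 220 to 239 bp, 27.5% at 300 to 319 bp, 73.85% at 400 to 419 bp and 39.55% at 480 to 499 bp. The inhibitor library gave 3.44, 24.3, 4.27, 21.98 and 6.35% at these distances, so its levels were high and low where those of DMSO were. The kept share over every CpG moved in the same sense, at 15.1, 34.4, 15.5, 29.8 and 16.1%. Around the methylated matches the inhibitor level lay between 25.7 and 33.4% over all 20 bp steps from 100 to 559 bp. Downstream of the match, 10 bp steps ran higher in a pair of stretches, with up to 38.7% at 210 to 219 bp and up to 36.0% at 560 to 569 bp.

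**Figure D4:**
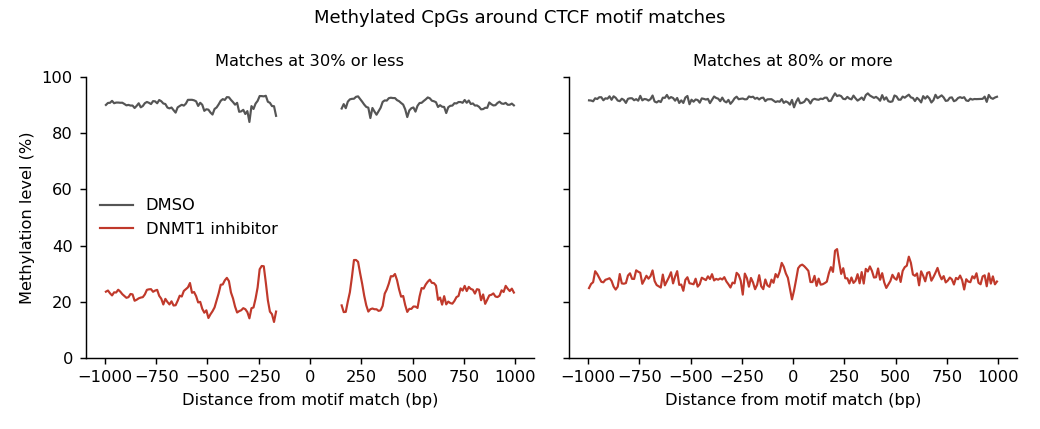
Methylation level (%) of methylated-class CpGs by distance (bp, in the direction of the motif) from CTCF motif matches at 30% or less (left) and at 80% or more (right) in non-differentiated cells, in 10 bp steps with at least 50 CpGs, for DMSO (grey) and the DNMT1 inhibitor (red). On the left the red line swings between 12.8 and 34.8%. The grey line is held near the top by the choice of CpGs at 80% or more, and over every CpG DMSO swings too.

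Promoters, from 1000 bp before to 500 bp after the start of 1 transcript per coding gene, followed their level in DMSO. Of 17839 promoters with at least 5 members, 7349 (41.2%) were at least 25 points lower with the inhibitor and 0 were as much higher. In DMSO against non-differentiated cells these shares were 0.236 and 0.0168%. All 3098 promoters at 60% or more in DMSO were lower, with a median of 73.1% in DMSO, 19.4% with the inhibitor and a median kept share of 26.3%. The 5104 promoters under 10% in DMSO had medians of 1.98 and 0.307%. Among methylated-class CpGs around starts, the kept share was lowest at 1000 to 1500 bp after the start (26.1%), and was 34.5% in the first 500 bp after it. In the promoters at 60% or more the median kept share rose with the number of members, from 22.6% with 5 to 14 CpGs to 25.6% with 15 to 29, 32.0% with 30 to 59 and 48.7% with 60 or more.

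Imprinted genes are read from 1 parental copy, and the promoters of MEST and ZNF331 were the imprinted ones among those that kept most. MEST, an imprinted hydrolase-like gene, went from 88.6 to 63.4% (interval 61.0 to 65.7%, 83 CpGs at 19.3 reads), a kept share of 71.6%. ZNF331, an imprinted zinc finger gene, went from 62.9 to 42.3% and kept 67.2%. Of 38 imprinted promoters measured, 18 were at least 25 points lower, a share of 47.4% beside the 41.2% of all promoters. The median of the 38 was 49.0% in DMSO. Kept shares of those at 60% or more thus do not describe imprinted promoters as a whole. The 14 at 60% or more in DMSO had a median kept share of 52.7%, or 51.9% with PEG3 and ZIM2, which share their CpGs, counted once, beside 26.3% for all such promoters. PEG3 and ZIM2 kept 62.2%, PLAGL1, a zinc finger gene, 59.8%, and NNAT, a proteolipid gene, 58.8%. MEG3, a long noncoding RNA gene, was the lowest of them, going from 60.6 to 13.1% (21.5% kept). Of the imprinted promoters, 7 had 60 or more CpGs, with a median kept share of 62.2% (61.0% with the shared promoter counted once) beside 48.7% for the 89 such promoters in all.

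Germline promoters also lay high. Of 31 measured, 29 were at least 25 points lower (93.5%, beside 41.2% of all), and these 29 had a DMSO level of 60% or more. Of all 3098 promoters at that level, 3087 (99.6%) were as much lower, so the count of germline promoters follows their level. The 29 germline promoters had a median kept share of 44.8%. It ran from 30.03% at DPEP3, a testis dipeptidase (71.4 to 21.4%), to 58.8% at TDRD6, a germ granule protein (70.4 to 41.4%, 94 CpGs). MAEL, a piRNA pathway factor, kept 55.9% (76.7 to 42.9%). DAZL, a germ cell RNA-binding protein, kept 52.4% (82.0 to 43.0%). SYCP3, of the synaptonemal complex, kept 52.0% (95.9 to 49.9%, 68 CpGs). In the promoters with 30 to 59 CpGs, the 21 germline promoters had a median of 44.4% beside 32.0% for all 784. With 60 or more CpGs, the 6 germline promoters had a median of 49.3% beside 48.7% for all 89, so these medians lay close together. Neither difference was tested.

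**Figure D5:**
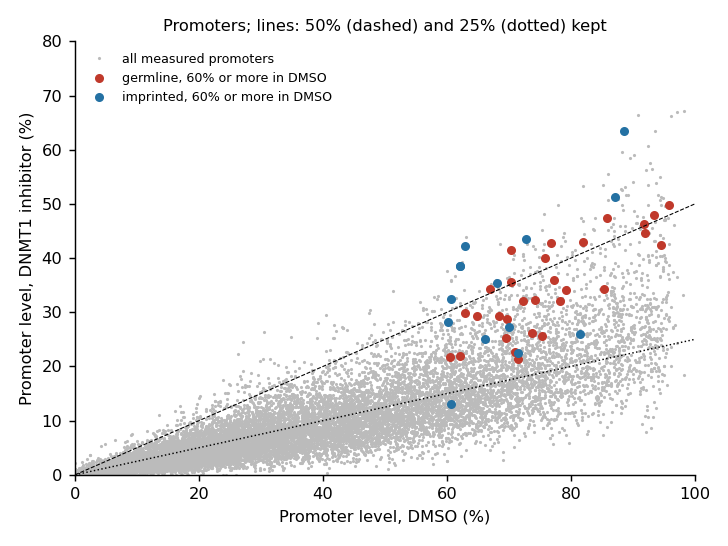
Promoter methylation level (%) in DMSO (horizontal axis) and with the DNMT1 inhibitor (vertical axis) for all measured coding promoters (grey), and for the germline (red) and imprinted (blue) promoters at 60% or more in DMSO. Lines mark kept shares of 50 and 25%, and most coloured points lie above the lower line, with MEST highest among them at 63.4%.

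Other promoters at the top of the order, taken among those with at least 10 CpGs and 60% in DMSO, had varied roles. HUS1B, a paralogue of a DNA damage checkpoint gene, went from 97.1 to 66.95% (68.97% kept). CYP26C1, a retinoic acid hydroxylase, went from 92.5 to 60.7% (65.6% kept), and ZNF595 kept 69.7% over 12 CpGs. RGPD3 (73.1% kept), RGPD4, RGPD2, POTEH and CATSPER2 have near-identical copies elsewhere, so their reads may be misplaced and their values are uncertain. At the other end ZNF746 went from 69.0 to 2.77% (interval 1.59 to 4.78%, 12 CpGs), a kept share of 4.01%. INS, the insulin gene, and its readthrough INS-IGF2 share 13 CpGs that went from 60 to 2.53%. CDK5R1, an activator of a neuronal kinase, kept 6.14%, TRRAP, a histone acetyltransferase scaffold, 7.23%, and METRN, a secreted neural factor, 7.31%. DUSP16, a phosphatase, kept 8.26%, VSIG10L 8.43% and SLC23A3 8.75%. These low promoters had 11 to 17 CpGs each, against 12 to 110 at the top.

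Globin promoters behaved by their level in DMSO. Of 9 measured, 5 were at least 25 points lower (55.6%, beside 41.2% of all promoters). The fetal gamma genes HBG1 and HBG2, near-identical copies whose reads may be split, went from 95.8 to 28.4% over 6 CpGs and from 80.2 to 22.7% over 8. Embryonic HBE1 went from 83.5 to 17.8% and embryonic HBZ from 60.4 to 14.8%. HBQ1 went from 43.9 to 12.7%, and HBD, the minor adult gene, from 31.3 to 6.62%. The adult HBB went from 15.2 to 2.49%, and HBA1 (1.18%) and HBM (0.220%) were near 0 in DMSO already. HBA2 had only 2 members, both at 0 in DMSO and with the inhibitor. The 4 globin promoters at 60% or more kept 21.4 to 29.6%, around the 26.3% of all such promoters.

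Erythroid promoters were mostly low to begin with. The promoters of ANK1, a membrane skeleton anchor, KLF1, the erythroid transcription factor, and EPB42 lay between 0.282 and 4.31% in DMSO, so these defining promoters of the erythroid label were unmethylated or nearly so. Promoters of 15 T cell, B cell, myeloid and liver genes lay between 5.23% at PAX5 and 81.7% at LYZ. With the inhibitor 5 of the 14 erythroid promoters were at least 25 points lower (35.7%, beside 41.2%). SLC4A1, the band 3 anion exchanger, went from 81.8 to 10.1%, TRIM58, a ubiquitin ligase of late erythropoiesis, from 75.1 to 10.0%, and AHSP, the alpha globin chaperone, from 49.2 to 2.88%. EPOR, the erythropoietin receptor, went from 47.8 to 10.4%. The promoters of TFRC, RHAG, GYPB, HEMGN and CA1 started between 8.89 and 23.6% and ended between 0 and 4.40%. SLC4A1 and TRIM58 kept 12.4 and 13.4%, below the lower quartile of promoters at 60% or more (20.5%).

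Genes of the methylation machinery had partly methylated promoters, and 3 of 16 measured were at least 25 points lower (18.8%, beside 41.2%). Their median promoter stood at 22.8% in DMSO, under the 25 points the rule asks for. UHRF1, the partner of DNMT1, went from 66.0 to 8.85% (interval 7.01 to 11.1%, 42 CpGs). DNMT3B, a de novo methyltransferase, went from 78.1 to 7.91% over 6 CpGs, and USP7, a deubiquitinase, from 32.8 to 5.20%. DNMT1 itself went from 22.7 to 6.52%, and SETDB1, a histone methyltransferase, from 41.5 to 16.7%. TET1, a demethylating dioxygenase, went from 24.6 to 4.56%, MBD3 from 24.2 to 4.43%, MBD2 from 22.9 to 10.3% and TRIM28, a corepressor, from 28.0 to 8.67%. The promoters of HELLS, PCNA, MBD1, TET2, UHRF2, MBD4 and TET3 stood at 0 to 15.6% in DMSO and ended at 0 to 5.44%. DNMT3A and DNMT3L had fewer than 5 members and ZFP57 had none.

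Other lists were described by their promoters at 60% or more in DMSO, beside the median of 26.3% for all. The 12 zinc finger genes of chromosome 19 had a median of 37.7%, from ZNF83 (26.9%) to ZNF331. HOXA5 kept 57.1% (82.0 to 46.8%) and HOXB1 32.7%, and 5 of 39 HOX promoters were at least 25 points lower (12.8%, beside 41.2% of all). The median HOX promoter stood at 15.5% in DMSO, under the 25 points the rule asks for. The 87 olfactory receptor promoters had a median of 26.1%, from OR4D11 (10.2%) to OR11H4 (52.7%). The interferon genes IFNL3 and IFNL1 kept 28.6 and 22.4%. The 4 developmental regulators ran from LHX3 (23.2%) to TBX19 (30.3%). No clustered protocadherin promoter reached 60%, and 4 of 53 were at least 25 points lower (7.55%, beside 41.2%), from a median of 31.2% in DMSO.

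Kept shares spanned a narrower range in gene bodies than in promoters, which hold fewer CpGs each. In 10233 coding bodies with at least 100 members and 60% in DMSO, the kept share had a median of 28.5% and a 5th to 95th percentile range of 21.3 to 37.3%. In 2751 promoters with at least 10 members and 60% in DMSO this range was 14.7 to 49.5%. The median number of members was 400 in these bodies and 23 in these promoters, and its part in the ranges was not tested. PLEC, the cytoskeletal linker plectin, kept 62.1% (90.7 to 56.3%, 893 CpGs), and AMH, the anti-Müllerian hormone gene, kept 62.5% (66.2 to 41.4%). C1QTNF4, MYORG, GAL3ST3, ZNF467, ZNF835, TLNRD1, IRX4 and WDR97 completed the 10 highest at 54.6 to 59.9%. The lowest was LRFN4, a synaptic adhesion gene, at 72.6 to 6.17% (8.49% kept). It was followed by RPL38, a ribosomal protein (12.4%), GUK1, guanylate kinase (13.1%), TFRC, the transferrin receptor (13.9%), SLC29A1, a nucleoside transporter (14.02%), NCL, nucleolin (14.9%), NR1H2, an oxysterol receptor (14.96%), EIF4G2, a translation factor (14.99%), TACR2, a neurokinin receptor (15.01%) and CA1, carbonic anhydrase 1 (15.04%). CA1 was covered at 91.6 reads in DMSO, far above the other bodies named.

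Some gene groups differed in bodies also at isolated CpGs, which have no close neighbours, and for others the gap was small there or turned. Over all bodies at 60% or more in DMSO, methylated CpGs with none within 35 bp kept 24.3%. In bodies of the 12 erythroid genes they kept 18.4% (92.7 to 17.1%, 1341 CpGs). As for every list here, reads were pooled over genes, so bodies with many reads weigh more. Among the erythroid bodies these were ANK1 (2489 CpGs in all) and CA1 (91.6 reads in DMSO). By whole bodies 8 of these 12 lay below the median of all bodies at 60% or more (28.03%), from TFRC (13.9%) over ANK1 (21.6%) to TRIM58 (34.3%). Isolated CpGs in bodies of other lists also lay below those of all bodies, at 20.9% for myeloid, 21.2% for interferon and 22.7% for both methylation machinery and germline genes. In bodies of 46 ribosomal protein genes, a list chosen after RPL38 was seen, they kept 16.6%. In bodies of chromosome 19 zinc finger genes they kept 32.6% (89.6 to 29.2%, 9144 CpGs). Methylated CpGs in the last exons of these genes, which code for the finger repeats, kept 41.1%, beside 33.3% in other last exons of chromosome 19. With 4 to 9 CpGs within 250 bp the values were 37.8 and 26.3%. Coverage there was 44.9 and 34.996 reads, and its part was not tested. Bodies of imprinted genes had a median kept share of 33.0% and kept 25.3% at isolated CpGs, and bodies of olfactory receptor genes 29.9 and 24.7%, both close to the 24.3% of all bodies at such CpGs. The 6 HOX bodies had a median of 39.3% but kept 17.2% at their 94 isolated CpGs, below that of all bodies. Isolated CpGs in bodies under 10 kb kept 20.7%, beside 24.3% in bodies of 50 to under 200 kb.

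Remaining methylation was ranked only among dense windows of high level. Of 76939 windows of 1000 bp with at least 20 members and 80% or more in DMSO, 2663 (3.46%) stayed at 50% or more and 17 stayed at 70% or more. By place, 1322 of 34977 such windows in introns stayed at 50% or more (3.78%), as did 752 of 22957 between coding genes (3.28%), 534 of 18441 over exons (2.90%) and 55 of 564 at promoters (9.75%). These places were not matched for CpG density, and its part in the higher promoter share was not tested. Over all methylated-class CpGs, those in promoters kept 29.8%, beside 30.9% between coding genes and 30.4% in introns. With 4 to 9 other CpGs within 250 bp these kept shares were 25.6, 29.5 and 29.4%. The share of dense windows at 50% or more was 19.3% in windows with 40 or more CpGs and 2.51% in those with 20 to 39. Sparser windows at 80% or more in DMSO also stayed at 50% or more in places. These were 2211 windows with 10 to 19 CpGs (1.07%), 1223 with 6 to 9 (0.828%) and 1389 with 3 to 5 (1.18%). Among the dense windows, after LATS2 (73.7% with the inhibitor) and KCNV2 (72.4%) came ARHGAP39, a GTPase-activating protein. It had 2 adjoining windows at 71.9 and 71.5%, and ZNF316 stood at 71.9%. RGPD4, of a multicopy family, stood at 71.5%, ATG7, an autophagy enzyme, at 71.3%, CHST12, a sulfotransferase, at 71.1%, and ERICH1 at 70.7%. A window 120879 bp from METRNL stood at 71.1%. The lowest were those nearest to RBM38 (5.83%) and RNH1 (5.90%), then MLLT1, a transcription elongation factor (5.97%), WDR62, a spindle protein (6.05%), UBAC1 (6.55%), RABGAP1 (6.87%), C11orf21 (6.94%), FNDC11 (7.26%), SLC6A19 (7.28%) and EHD1 (7.33%). Their DMSO levels, 80.3 to 88.9%, lay a little under the 91.3 to 97.6% of the highest windows.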

How the data were processed

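Whole-genome bisulfite sequencing tables of HUDEP-2 cells were used, 1 library per condition, with methylKit column names per the file headers. The authors deposited a read count (coverage) per CpG and the percent of C and of T among those reads. Per the submitters' processing notes, Trim Galore 0.6.7, cutadapt 4.1, Bismark, Bowtie2 2.1.0, methylKit and hg38 were used. Removal of duplicates was not given in the sources used here. In the deposited tables CpGs have a coverage count of at least 10, so poorly covered, often GC-rich CpGs are missing. Methylated reads were the coverage times the percent, rounded to a whole number, which is approximate above 1000 reads (2054 members). Of the members, 2884 were not CpGs of the reference and were kept.

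Levels were methylated reads over all reads, with 95% Wilson intervals. Over all listed CpGs, not only those on chromosomes 1 to 22, the median coverage was 26 reads in DMSO and 27 with the inhibitor. With 1 library per condition no test was made, and a difference of at least 25 points stood in for a call. Genes came from GENCODE 44, and promoter, body and window sequence from hg38. Scripts ran in Python 3.11.15 with numpy 2.4.6 and pandas 2.3.3 and were tested on simulated data. Named genes were the 10 highest and 10 lowest kept shares among promoters (at least 10 CpGs and 60% in DMSO), bodies (at least 100 CpGs and 60%) and dense windows (ranked by inhibitor level), 5 and 5 of 1 Mb windows with at least 2000 CpGs, all globin, erythroid and methylation machinery genes, and the highest and lowest of other lists. Some genes that this rule names are not reported here. Other lists were T cell, B cell, myeloid, liver, imprinted, germline, interferon, HOX, developmental, protocadherin, olfactory receptor and chromosome 19 zinc finger genes. Additional germline, imprinted and body examples were named after their values were seen. Members and lists were chosen with earlier results of these data known. Alternatives covered coverage minimum, thinning, window size, thresholds, promoter span, CpG class and reference library.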

Additional observations from a re-analysis of the deposited data

How the results depend on the processing

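Every difference below kept its direction under the alternatives run. The span between contexts is a highest minus a lowest value, and the correlation step used the low and peak of each set of CpGs. The direction of these was thus largely set in advance, and only their size is described. Counts have no direction, and some moved by more than 1.5 times. The genome difference, −43.4 points, was −43.8 with at least 20 reads, as an unweighted mean over CpGs and when thinned to 10 reads, −43.5 for CpGs in all 4 tables and without CpGs above 3 times the median coverage, −43.3 without chromosome 1 and −44.9 against the non-differentiated library. Lower windows numbered 475528 of 536039 at 5000 bp (88.7%) and 818040 of 885601 with at least 10 CpGs (92.4%), beside 1925890 of 2364115 (81.5%). At 40 points they were 1299564 of 2364115 (55.0%). Lower promoters numbered 11338 of 18210 with 2000 bp upstream (62.3%), 2577 of 12233 with 250 bp on either side (21.1%) and 3873 of 17839 at 40 points (21.7%), beside 7349 of 17839 (41.2%). With at least 20 reads per CpG they were 7468 of 14545 (51.3%). The rise of the kept share from sparse to dense CpGs, 18.5 points, was 18.3 with the class from DMSO, 23.1 by neighbours within 35 bp, 16.0 in windows at 70% or more, 19.5 unweighted and 17.3 with at least 20 reads. The difference between windows at 70% or more and under 50%, 5.64 points, was 3.21 in 1 Mb windows, 2.55 over methylated CpGs, 4.21 over isolated CpGs and 5.71 with bins by DMSO. The span between contexts, 14.4 points, was 10.3 at isolated CpGs and 14.2 with at least 20 reads. First peak minus first low of the pair correlation, 0.20, ran from 0.15 on chromosome 19 and over CpGs at 20 to under 80% in non-differentiated cells to 0.24 with at least 20 reads, all chosen after seeing the data. It was 0.19 over every shared CpG. Alternatives outside repeats were not run, because the reference used carries no repeat marks. No paired analysis was possible because each condition was 1 library.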
